A study of Mus musculus with 36 samples.

Results

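The regions described here are broad H3K4me3 regions that carry H3K9bhb in crypts of the mouse small intestine after fasting. Peaks of the 4 H3K4me3 lists were merged where they overlapped or touched, which gave 19358 regions. A merged region was kept when it spanned 5000 bp or more, had an H3K4me3 peak in both fasted pools, was overlapped by at least 1 bp of an H3K9bhb peak in both fasted pools, and met no H3K27me3 peak in either fasted pool. The rule kept 1621 regions, 8.37% of all merged regions. Of the 12324 regions called for H3K4me3 in both fasted pools, 1807 were at least 5000 bp wide. Among these, 88 were set aside for H3K27me3 in a fasted pool and 98 more for lacking H3K9bhb in at least 1 fasted pool. The regions were thus selected on measured values, those of H3K4me3, H3K9bhb and H3K27me3 in the fasted pools, and the values of these marks there are given as a description with no test. All positions are on the mm9 build. Genes and sequences were not attached to them, because the gene tables at hand were made for GRCm38, so it was not checked that each region lies at an annotated promoter. Regions of chromosome 18, of which 48 were kept, are counted and not named.

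H3K4me3 is laid down at promoters by SET1 and MLL methyltransferase complexes, and most active promoters carry it over a narrow stretch around the transcription start. Wide H3K4me3 domains are known from many tissues, where they often mark genes that define the identity of the cell. In H3K9bhb and H4K12bhb a histone lysine is modified with β-hydroxybutyrate, the main ketone body, which the liver releases during fasting. H3K27ac is a mark of active promoters and enhancers, H3K4me1 lies at enhancers and along the borders of active promoters, and H3K79me2, written by DOT1L, covers the first part of transcribed genes. Polycomb complexes write H3K27me3, and constitutive heterochromatin carries H3K9me3.

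Chromatin came from fasted mice, deprived of food for 24 h with free access to water, and from fed mice with free access to food. Fasted pools 2 and 5 and fed pools 1 and 4 each held the crypts of 4 animals of both sexes, aged 6 to 12 weeks, and each pool was profiled for 8 marks. The labels give the genotype of all samples as wildtype, while the protocols name Lgr5EGFP-IRES-CreERT2/+ mice, an intestinal stem cell reporter strain, beside C57BL/6J, without saying which animals entered which pool. All crypts were isolated in 100 nM trichostatin A, a histone deacetylase inhibitor, so the fasted and the fed chromatin alike was taken with deacetylases blocked. The data are 32 lists of peaks, with no read counts, so read depth is unknown, and a region without a peak is one in which the caller's threshold was not met. A lower share of cells carrying a mark cannot be told apart from a lower density of the mark in each cell. Crypt markers were not analysed here.

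The lists held from 59 to 46499 peaks, and several stood apart from the others of their mark. The H3K4me3 lists held 15079 and 18429 peaks in fasted pools 2 and 5, against 3430 and 295 in fed pools 1 and 4. Fed pool 1 gave 309 peaks for H3K4me1 and 571 for H3K79me2, where fed pool 4 gave 39865 and 33841. The H3K9bhb lists held 38934 and 37640 peaks in the fasted pools and 19555 and 13923 in the fed pools. For H3K9bhb, H3K27ac, H3K4me3, H3K27me3 and H3K9me3 both fasted lists were longer than both fed lists, while for H4K12bhb, H3K4me1 and H3K79me2 the lengths overlapped between the conditions. With lists cut to equal numbers of top-scoring peaks, the fasted minus fed difference in the share of broad regions called was 14.7 percentage points for H3K9bhb (19.5 with all peaks), 16.0 for H3K27ac (13.0) and 4.23 for H4K12bhb (4.60). The names of the files place fasted pool 2 and fed pool 1 in run 10, and fasted pool 5 and fed pool 4 in run 11.

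The broad regions measured from 5000 to 22970 bp, with a median of 6130 bp and quartiles of 5448 and 7368 bp, and covered 10.9 Mb in all. The 4841 narrower counterparts, which met every criterion but the width, had a median of 3357 bp, and the 2718 H3K4me3 regions that had no H3K9bhb in any pool had a median of 2369 bp. A width of 5000 up to 6000 bp was found in 756 broad regions, 6000 up to 8000 bp in 578, 8000 up to 10000 bp in 194, and 10000 bp or more in 93. Most were wide as called in at least 1 fasted pool, and not only after merging. A single H3K4me3 peak of at least 5000 bp lay in 768 of them in fasted pool 2 and in 1309 in fasted pool 5. Such a peak was found in both fasted pools at 663 regions, a minority, and in neither at 207. Leaving the fed lists out of the merging gave the same number, 1621. The 5 regions just inside the threshold ran from 5000 to 5003 bp and the 5 just outside it from 4991 to 4998 bp. Those 5 inside had 39.5% to 98.3% of their bases in H3K9bhb peaks in fasted pool 2, and those 5 outside had 13.4% to 99.1%, so coverage did not separate the regions next to the threshold.

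H3K9bhb peaks covered most of the bases of the broad regions on average in the fasted pools, and fewer in the fed pools, where the mark was usually still called. In 1276 of the 1621, H3K9bhb covered at least 50% of the region in both fasted pools, and the others had less in at least 1 of them. H3K9bhb peaks covered on average 75.6% and 76.9% of a region in fasted pools 2 and 5, against 41.0% and 37.5% in fed pools 1 and 4. The fasted mean was 76.2% ± 0.94 and the fed mean 39.3% ± 2.47 (SD, n = 2 pools each). The fasted and the fed values did not overlap. An H3K9bhb peak was present in 81.2% of the broad regions in fed pool 1 and in 79.8% in fed pool 4, beside the 100% in each fasted pool that the rule fixed. Both fed pools called 1138 of them (70.2%), 1 fed pool called 335, and neither called 148 (9.13%). Over all 12324 H3K4me3 regions of the fasted pools, 22.6% had H3K9bhb in both fed pools and 15.1% had it in both fasted and neither fed pool; most of those regions did not have to carry fasted H3K9bhb, so nothing is read from the difference. Among the narrower counterparts, which did have to carry it, 31.6% had H3K9bhb in both fed pools and 34.3% in neither.

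**Figure D1:**
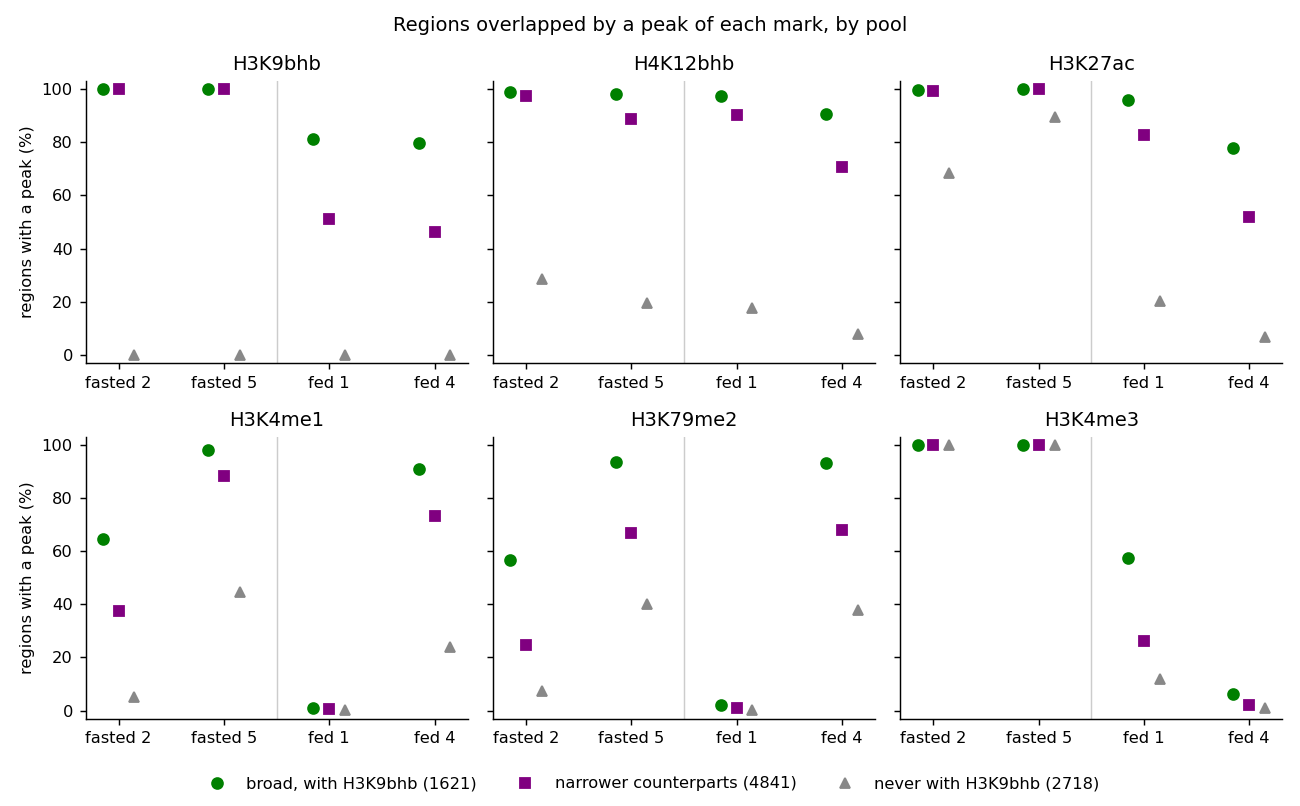
Share of regions (percent, vertical axis) overlapped by a peak of each of 6 marks in fasted pools 2 and 5 and fed pools 1 and 4 (horizontal axis), with circles for the 1621 broad regions with H3K9bhb, squares for the 4841 narrower counterparts and triangles for the 2718 H3K4me3 regions never called for H3K9bhb. In the fed pools H3K9bhb was called in 81.2% and 79.8% of the broad regions and in 51.0% and 46.3% of the narrower counterparts, while the H3K4me1 and H3K79me2 points of fed pool 1 lie near 0 in every set.

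The difference in coverage was also seen region by region. Coverage by H3K9bhb in both fasted pools was above that in both fed pools in 1466 broad regions (90.4%) and below it in 1 (0.0617%). Among the narrower counterparts the same held for 85.6% and 0.0826%. Over all 12324 H3K4me3 regions it held for 46.5% and 0.195%, and nothing is read from that difference, since the rule required fasted H3K9bhb. The median difference over the broad regions, fasted minus fed, was 35.4 percentage points, with quartiles of 24.1 and 48.6. Where a peak was called, the median number of bases covered was 5020 and 5070 in fasted pools 2 and 5, and 3246 and 2846 in fed pools 1 and 4. A region was covered from edge to edge in 203 and 241 cases (12.5% and 14.9%) in the fasted pools and in 5 and 4 cases (0.308% and 0.247%) in the fed pools. Edge to edge coverage was more common in the narrower counterparts, at 16.4% and 17.9% in the fasted pools and 2.21% and 1.71% in the fed pools. Over all H3K4me3 regions it was found in 8.43% and 9.27% in the fasted pools and in 0.982% and 0.738% in the fed pools. A peak in both fasted pools was required of every region and none was required in the fed pools, so the direction of these differences is fixed in part by the rule.

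Fed peaks lay almost wholly within the bases that a fasted pool also called. Of the fed H3K9bhb bases inside the broad regions, 98.1% in fed pool 1 and 98.8% in fed pool 4 were in a fasted H3K9bhb peak, and they made up 49.9% and 46.1% of the fasted bases. For H3K27ac the same shares of fed bases were 99.8% and 99.9%, and for H4K12bhb 95.3% and 97.8%. The fasted lists cover much of the regions' bases on average, and a high share follows in part from that coverage.

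H3K9bhb covered more of the inner part of the regions than of their edges, in fasted and fed pools alike. In the last 250 bp inside an edge, 51.2% and 51.0% of bases lay in H3K9bhb peaks in fasted pools 2 and 5, against 21.5% and 15.9% in fed pools 1 and 4. At 2250 to 2500 bp inside, near the centre of a region of ordinary width, the values were 86.4% and 89.0% in the fasted pools and 50.4% and 48.1% in the fed pools. Coverage did not stop at the edge of H3K4me3: in the 250 bp just outside it was 43.6% and 42.8% in the fasted pools and 17.4% and 12.1% in the fed pools. In the outermost 250 bp of the 5000 bp flank it was still 28.0% and 28.5% in the fasted pools, against 11.2% and 8.08% in the fed pools. H3K9bhb was therefore called well beyond the H3K4me3 domain in all 4 pools, and most often in the fasted ones.

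**Figure D2:**
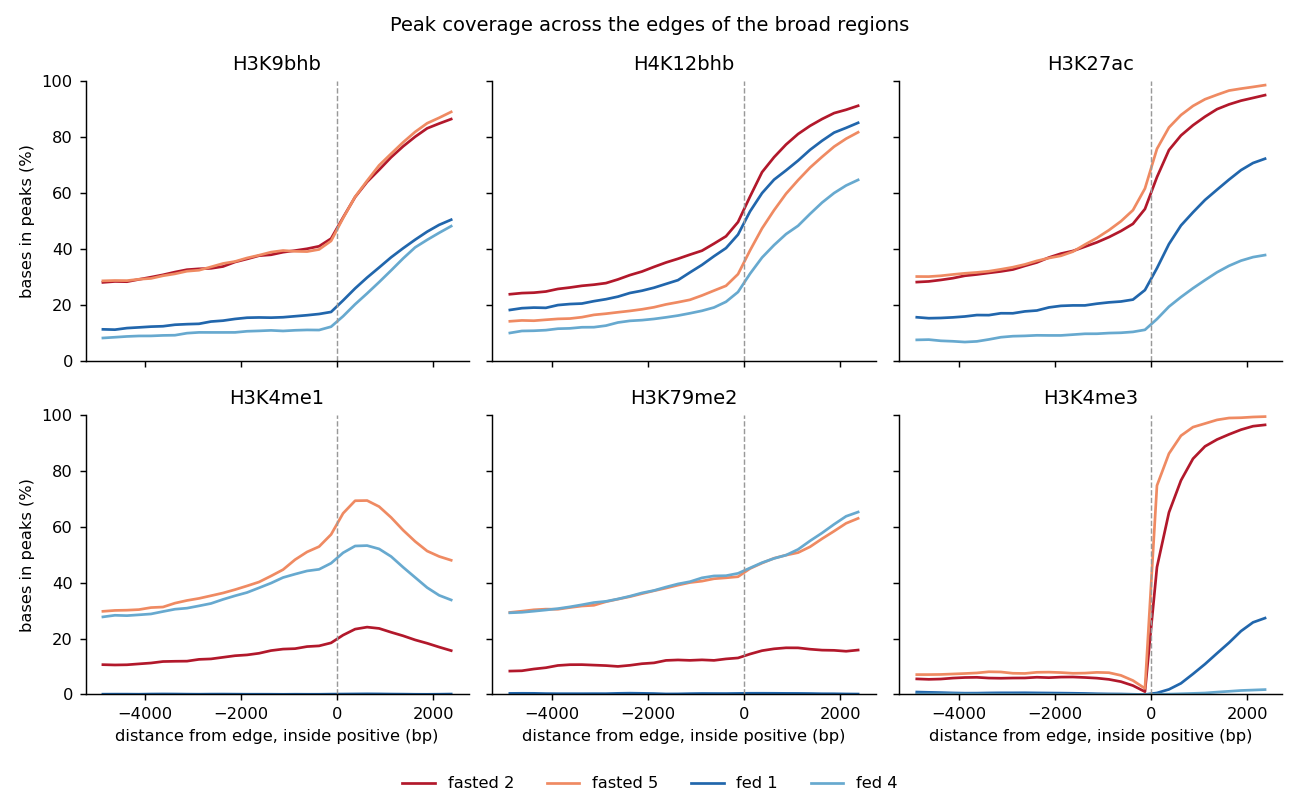
Percent of bases in peaks (vertical axis) in bins of 250 bp against distance from the edges of the 1621 broad regions (horizontal axis, bp, positive inside), averaged over both edges, with 1 line for each pool and 1 panel for each of 6 marks. H3K9bhb, H4K12bhb and H3K27ac climb toward the inside, from 43.6% and 42.8% just outside the edge to 86.4% and 89.0% inside for H3K9bhb in the fasted pools; H3K4me1 is highest just inside the edge and lower toward the centre, and the sharp step of H3K4me3 follows from how the regions were cut.

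Within the broad class, mean H3K9bhb coverage was higher in the wider width classes, in fasted and fed pools alike, although over single regions the relation was weak. Spearman's rho between width and percent covered was 0.188 and 0.19 in fasted pools 2 and 5, and 0.261 and 0.258 in fed pools 1 and 4. In regions of 5000 up to 6000 bp, H3K9bhb covered 72.0% and 72.9% in fasted pools 2 and 5, against 34.2% and 31.0% in fed pools 1 and 4. In the 93 regions of 10000 bp or more it covered 88.2% and 90.2% in the fasted pools, against 61.8% and 57.1% in the fed pools. The share called at all in the fed pools was 73.4% and 71.8% at 5000 up to 6000 bp, 85.6% and 83.2% at 6000 up to 8000 bp, 91.2% and 92.3% at 8000 up to 10000 bp, and 96.8% and 97.8% at 10000 bp or more. In the narrower counterparts of 3000 up to 5000 bp it was 54.3% and 49.1%. A wider region has more room for a peak, which bears on the share called. The percent of bases covered is not free of width either. Coverage was lower near the edges, which are a smaller part of a wider region, and how much this adds was not tested. Coverage was not lowest in the narrowest regions, however: counterparts under 3000 bp had 76.2% and 77.5% of bases covered in the fasted pools, above the 67.1% and 69.2% of those of 3000 up to 5000 bp.

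**Figure D3:**
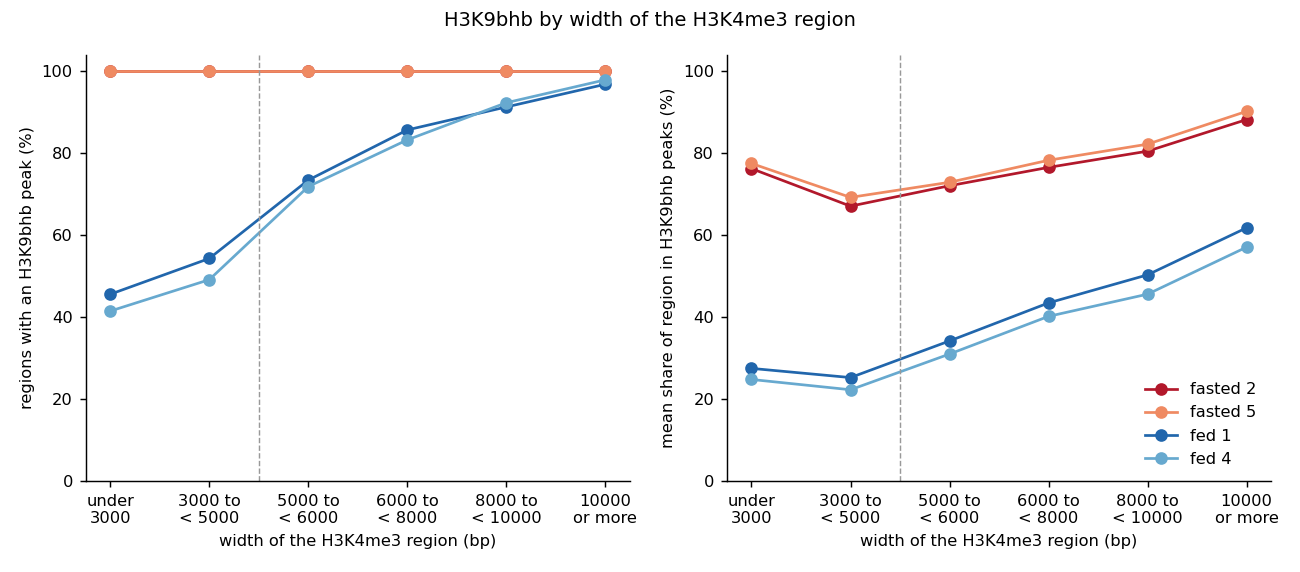
Share of regions with an H3K9bhb peak (left, percent) and mean percent of a region in H3K9bhb peaks (right) by width of the H3K4me3 region (horizontal axis, bp), with 1 line for each pool; the dashed line marks 5000 bp. The fed lines reach 96.8% and 97.8% of regions at 10000 bp or more, while the fasted lines at 100% in the left panel are fixed by the rule.

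The broad regions also held many of the highest scoring peaks. Of the 500 peaks with the highest caller score in each H3K9bhb list, 204 and 255 overlapped a broad region in fasted pools 2 and 5, and 231 and 248 did so in fed pools 1 and 4. For all H3K9bhb peaks the share in broad regions was 6.78% and 6.57% in the fasted lists and 12.0% and 15.4% in the fed lists. The best H3K9bhb peak of a broad region had a median score percentile of 91.8 and 93.0 in the fasted lists and of 85.6 and 83 in the fed lists. Score is the authors' own value for each peak and ranks peaks within 1 list, so these ranks show no change between lists. H4K12bhb was similar, with 255 and 300 of its 500 highest peaks in broad regions in the fasted pools and 235 and 227 in the fed pools. For all H4K12bhb peaks the share was 8.75% and 13.5% in fasted pools 2 and 5 and 10.6% and 15.4% in fed pools 1 and 4. The narrower counterparts were not ranked in this way.

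The 10 widest regions showed the pattern clearly. The widest, chr14:63853193-63876162, is 22970 bp long and had 98.8% and 99.8% of its bases in H3K9bhb peaks in fasted pools 2 and 5, against 64.4% and 65.6% in fed pools 1 and 4. At chr5:148110119-148130159, of 20041 bp, H3K9bhb covered 99.8% and 99.8% in the fasted pools and 83.5% and 88.5% in the fed pools. At chr14:99693170-99711329, of 18160 bp, it covered 83.2% and 82.9% in the fasted pools and 46.5% and 66.0% in the fed pools. In all 10 both fasted values lay above both fed values for H3K9bhb. At chr11:98601003-98616221, of 15219 bp, H3K9bhb covered 100.0% and 99.4% in the fasted pools and 97.7% in fed pool 1, and no peak was called in fed pool 4, although H4K12bhb covered 98.6% and H3K27ac 94.2% of the region in that same pool. At chr7:52959122-52979256, of 20135 bp, H4K12bhb covered 93.1% in fasted pool 5 and 76.7% in fed pool 4 and was not called in fasted pool 2 or fed pool 1, the pools of run 10. Single lists thus lacked whole domains that other lists of the same mark covered.

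**Figure D4:**
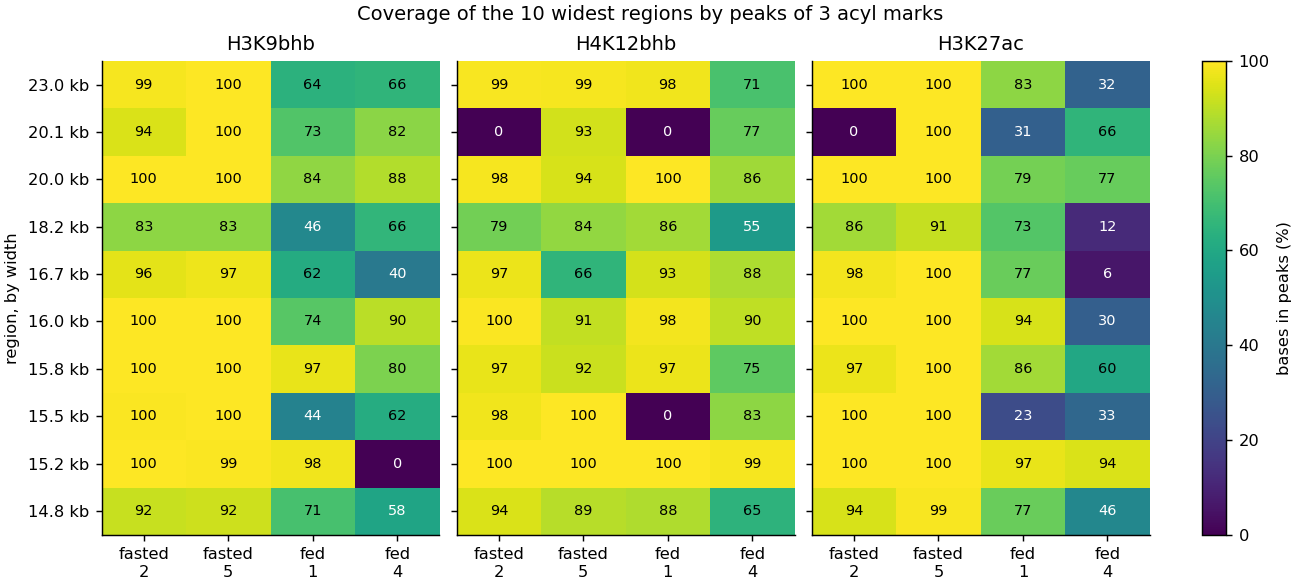
Percent of bases in peaks (colour and printed number) of H3K9bhb, H4K12bhb and H3K27ac in the 10 widest broad regions (rows, by width in kb) in fasted pools 2 and 5 and fed pools 1 and 4 (columns). For H3K9bhb the fasted columns lie between 82.9% and 100.0%; isolated cells of 0 stand in rows that the other pools cover.

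The extremes of the fasted minus fed difference were sought among the 1106 broad regions outside chromosome 18 with H3K9bhb in both fed pools. Both extremes were among the less wide regions. The largest difference in H3K9bhb coverage among these 1106 was at chr15:76034241-76039989, with 100.0% and 95.9% in the fasted pools and 4.31% and 21.3% in the fed pools. There H4K12bhb covered 100.0% and 80.6% in the fasted pools and 73.4% and 55.0% in the fed pools. At chr19:5686967-5693934, H3K9bhb covered 97.6% and 97.2% in the fasted pools and 20.7% and 21.0% in the fed pools. At the other end, chr11:21467646-21473143 was the only broad region in which both fasted pools lay below both fed pools, with 40.7% and 45.2% in the fasted pools and 71.4% and 57.1% in the fed pools. The next in order, chr2:93297401-93303945, had 100.0% and 12.1% in the fasted pools and 100.0% and 49.9% in the fed pools, so its low mean came from fasted pool 5.

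H4K12bhb, the second β-hydroxybutyrylation mark and not part of the rule, was called in nearly every broad region in all 4 pools. It was present in 99.0% and 98.0% of them in fasted pools 2 and 5, against 97.3% and 90.4% in fed pools 1 and 4. The difference of the means was 4.60 ± 4.89 percentage points (SD, n = 2 pools each), and the exact permutation test (two-sided) gave p = 0.33, the lowest value open to a design of 2 pools on each side, and a Benjamini-Hochberg value of 0.833 over 5 marks. Without fed pool 4 the difference was 1.17 percentage points, and without fed pool 1 it was 8.02. Mean coverage was 82.2% and 68.4% in the fasted pools and 75.1% and 53.6% in the fed pools, and these ranges overlapped (exact permutation p = 0.667). A peak in all 4 pools was found in 1426 broad regions (88.0%), against 40.3% of all 12324 H3K4me3 regions and 64.1% of the narrower counterparts. A peak in both fasted and neither fed pool was found in 15 (0.925%), against 5.01% of all H3K4me3 regions. No H4K12bhb in any pool was found in 2 broad regions (0.123%), against 22.4% of all H3K4me3 regions and 0.764% of the narrower counterparts. The fasted and fed shares did not overlap, and within runs 10 and 11 the share differed by 1.67 and 7.53 points and the coverage by 7.09 and 14.7 points, all higher in the fasted pool. Region by region, coverage in both fasted pools was above that in both fed pools in 434 broad regions (26.8%) and below it in 53 (3.27%), against 20% and 2.72% of all H3K4me3 regions and 25.8% and 3.66% of the narrower counterparts.

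H3K27ac was also called in nearly all broad regions after fasting, and its coverage differed between the conditions more than its presence did. It was present in 99.6% and 100.0% in fasted pools 2 and 5, and in 95.9% and 77.8% in fed pools 1 and 4, a difference of 13.0 ± 12.8 percentage points (SD, n = 2 pools each; exact permutation p = 0.33, Benjamini-Hochberg value 0.833). The values did not overlap, but the size was set largely by fed pool 4: without it the difference was 3.89 percentage points, and without fed pool 1 it was 22.0. Within run 10 it was 3.70 and within run 11 it was 22.2. The H3K27ac list of fed pool 4 held 15504 peaks, and the 3 others held 27640 to 37974. Mean coverage was 87.6% and 93.1% in the fasted pools and 60.4% and 31.1% in the fed pools (exact permutation p = 0.33). Coverage in both fasted pools exceeded that in both fed pools in 1545 broad regions (95.3%), against 79.3% of all H3K4me3 regions and 89.2% of the narrower counterparts, and lay below it in 0 of each set. H3K27ac in all 4 pools was found in 1228 (75.8%), against 31.6% of all H3K4me3 regions and 46.6% of the narrower counterparts. H3K27ac in both fasted and neither fed pool was found in 39 (2.41%), against 22.9% of all H3K4me3 regions and 11.9% of the narrower counterparts. Every broad region carried H3K27ac in at least 1 pool, as did 92.9% of all H3K4me3 regions and 4839 of the 4841 narrower counterparts.

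Broad regions with and without fed H3K9bhb also differed in other marks, acyl and methyl alike. In the 1138 with H3K9bhb in both fed pools, H3K27ac was called in 99.1% and 88.0% in fed pools 1 and 4. In the 335 with it in 1 fed pool the values were 92.8% and 59.7%, and in the 148 with it in neither they were 78.4% and 40.5%. H4K12bhb followed the same order, with 99.3% and 97.1%, 97.3% and 83.3%, and 81.8% and 55.4% in fed pools 1 and 4. H3K9bhb in the fasted pools, which does not enter this split, was also graded: it covered 83.5% and 84.4%, then 61.5% and 63.8%, then 46.3% and 49.0% of a region in fasted pools 2 and 5. H3K4me1 was graded too, with 72.6%, 49.9% and 34.5% in fasted pool 2 and 94.1%, 86.6% and 77.0% in fed pool 4, as was H3K4me3 in fed pool 1, with 60.6%, 51.3% and 45.9%. H3K79me2 was lowest in the regions without fed H3K9bhb, but its share was not graded in every pool. The share was 94.0%, 93.1% and 90.5% in fasted pool 5 and 93.2%, 94.6% and 87.8% in fed pool 4. In fasted pool 2 it was 56.9%, 58.5% and 51.4%. Mean coverage by H3K79me2 was weakly graded, with 57.4%, 55.4% and 51.7% in fasted pool 5 and 58.4%, 57.0% and 53.5% in fed pool 4. Width moves with the split, since the median was 6392 bp with H3K9bhb in both fed pools and 5514 bp with it in neither, and its part was not tested.

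Among the 1621 regions, the extent of H3K9bhb went most with that of the other acyl marks, less with that of H3K4me1 and hardly at all with that of H3K79me2. Spearman's rho between percent covered by H3K9bhb and by H4K12bhb was 0.73 and 0.747 in fasted pools 2 and 5, and 0.604 and 0.619 in fed pools 1 and 4. With H3K27ac it was 0.718 and 0.699 in the fasted pools and 0.604 and 0.585 in the fed pools. With H3K4me1 it was 0.421 and 0.369 in the fasted pools and 0.0381 and 0.229 in the fed pools. With H3K79me2 it was -0.0995 and -0.0725 in the fasted pools. H3K9bhb with itself gave 0.809 for the pair of fasted pools and 0.636 for the fed pair. These are descriptions over regions of the same pool, which share the input control and the sequence of each region, and regions are not replicates.

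H3K4me1 surrounded the broad regions and thinned toward their centre. In fasted pool 5, 57.2% of bases in the 250 bp outside an edge were in H3K4me1 peaks, 69.3% at 250 to 500 bp inside, and 48.0% at 2250 to 2500 bp inside. In fed pool 4 the same bins gave 47.0%, 53.1% and 33.8%, and in fasted pool 2 they gave 18.5%, 23.4% and 15.7%. The 3 pools with long lists thus showed the same shape, opposite to that of the acyl marks. H3K4me1 was called in 64.4% and 98.0% of the broad regions in fasted pools 2 and 5, against 0.987% and 91.0% in fed pools 1 and 4. The difference of 35.2 percentage points carries an SD of 67.9 (exact permutation p = 0.667), and without fed pool 1, whose list held 309 peaks, it was -9.78. Fasted pool 5 and fed pool 4 both called 1463 of the broad regions (90.3%), against 52.3% of all H3K4me3 regions and 69.4% of the narrower counterparts.

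H3K79me2 was called on most broad regions in the pools with long lists. It was present in 56.7% and 93.5% in fasted pools 2 and 5, against 2.04% and 93.0% in fed pools 1 and 4, where the list of fed pool 1 held 571 peaks. The difference of 27.6 percentage points had an SD of 69.4 (exact permutation p = 0.667), and without fed pool 1 it was -17.9. Fasted pool 5 and fed pool 4 both called 1462 broad regions (90.2%), against 51.9% of all H3K4me3 regions and 60.9% of the narrower counterparts.

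H3K79me2 extended from most broad regions to a single side. In fasted pool 5, its peaks covered at least 1000 bp more of the 5000 bp flank on one side than on the other at 1154 of the 1621 regions, toward the higher coordinate at 581 and toward the lower at 573. A further 262 had no H3K79me2 in either flank. The side was the same in the other condition: of the 1116 whose flanks differed in fed pool 4, 1092 (97.8%) had the longer stretch on the same side and 24 on the other. In fasted pool 2 the same side was longer in 734 of 753 (97.5%). The side was thus read from the data without an annotation, and this split was chosen after the values were seen.

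Each of these 1154 regions was split at its midpoint, and the acyl marks and H3K4me3 covered less on the H3K79me2 side in all 4 pools. H3K9bhb covered 68.5% on the H3K79me2 side and 79.75% on the far side in fasted pool 2, and 70.2% and 81.7% in fasted pool 5. In fed pool 1 it covered 36.7% on the H3K79me2 side and 44.0% on the far side, and in fed pool 4 it covered 29.65% and 43.2%. The mean difference was -10.9 ± 2.66 percentage points (SD, n = 4 pools). H4K12bhb differed by -11.4 and -6.28 points in fasted pools 2 and 5 and by -10.35 and -11.4 points in fed pools 1 and 4, a mean of -9.87 ± 2.45. H3K27ac differed by -13.8 and -8.38 points in the fasted pools and by -19.1 and -13.0 points in the fed pools, a mean of -13.6 ± 4.41. The lower value was not particular to the acyl marks. H3K4me3, which the rule used, differed by -8.36 and -1.385 points in fasted pools 2 and 5 and by -9.94 and -0.6875 points in fed pools 1 and 4. H3K4me1 lay the other way, with 18.2 and 39.6 points more on the H3K79me2 side in the fasted pools and 0.113 and 34.8 points more in the fed pools. For H4K12bhb, H3K27ac and H3K4me1, which the rule did not use, the two-sided exact sign-flip permutation p was 0.125 each, the smallest that 4 pools allow, so no 4-pool difference could pass 0.05. The sign was the same in 4 of 4 pools for each mark, and it stayed the same when the side was read from fed pool 4 (1142 regions) or when the flanks had to differ by 3000 bp (805 regions).

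**Figure D5:**
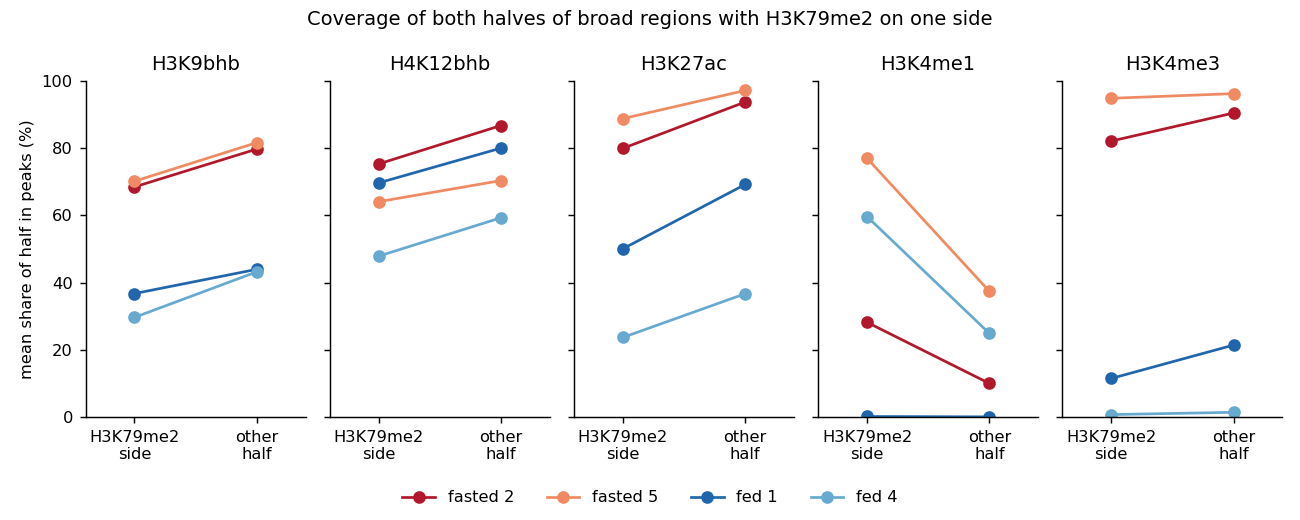
Mean percent of bases in peaks (vertical axis) on the H3K79me2 side and on the far side of the midpoint of 1154 broad regions (horizontal axis), with 1 line for each pool and 1 panel for each of 5 marks. Lines for H3K9bhb, H4K12bhb, H3K27ac and H3K4me3 are lower on the H3K79me2 side in all 4 pools, and those for H3K4me1 are higher there, by 0.113 points in fed pool 1.

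Beyond the edges the order was different. In the 5000 bp flank, H3K4me1 covered a mean of 2801 bp on the H3K79me2 side and 1212 bp on the far side in fasted pool 5, and 2537 and 1097 bp in fed pool 4. H3K9bhb covered 1665 and 1582 bp in fasted pool 2, 1677 and 1569 bp in fasted pool 5, 661 and 646 bp in fed pool 1, and 441 and 471 bp in fed pool 4, for the H3K79me2 side and the far side in turn. H3K9bhb outside the region thus lay about equally on both sides, with a sign that differed between pools. The mean of H4K12bhb was longer on the H3K79me2 side by 403 and 505 bp in fasted pools 2 and 5 and by 83.6 and 68.0 bp in fed pools 1 and 4. In the fed pools, however, more regions had it longer on the far side (466 against 451 and 364 against 348). H3K27ac differed by 31.9 and 247 bp in the fasted pools and by -97.7 and -3.28 bp in the fed pools. H3K27me3 in the flanks was found on the far side alone, at 20 and 24 regions in fasted pools 2 and 5 and at 7 and 3 in fed pools 1 and 4, and at none on the H3K79me2 side.

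H3K4me3 itself was called over few of these regions' bases in the fed pools, whose lists were short. It was present in 57.4% of the broad regions in fed pool 1 and in 6.29% in fed pool 4, and in neither in 654 (40.3%). Over all 12324 H3K4me3 regions, 74% had none in either fed pool. Although short, the fed lists held many broad regions: 1122 of the 3430 peaks of fed pool 1 (32.7%) and 106 of the 295 of fed pool 4 (35.9%) overlapped one. H3K4me3 was called in all 4 pools at 65 broad regions (4.01%), against 1.06% of all H3K4me3 regions and 0.868% of the narrower counterparts. The widest of these, chr11:70457942-70471471, is 13530 bp long, and H3K9bhb covered 99.3% and 98.3% of it in fasted pools 2 and 5 and 85.4% and 88.9% in fed pools 1 and 4.

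The repressive marks were rarely called in the broad regions. H3K27me3, which the rule barred in the fasted pools, met 1 broad region in fed pool 1 (0.0617%) and 0 in fed pool 4, against 3.58% and 2.38% of all H3K4me3 regions, on which the bar was not set, and 1 and 0 of the narrower counterparts. That region, chr11:117826680-117832061, had 11.9% of its bases in H3K27me3 peaks of fed pool 1, and its H3K9bhb coverage was 86.6% and 62.6% in the fasted pools and 7.49% and 26.6% in the fed pools. Nearby, a fasted H3K27me3 peak lay within 5000 bp of 3.21% of the broad regions, 3.99% of the narrower counterparts and 12.5% of the regions never called for H3K9bhb. The H3K9me3 lists were short, with 521 and 4376 peaks in fasted pools 2 and 5 and 208 and 59 in fed pools 1 and 4. Few regions of any set could therefore meet one of these peaks. H3K9me3 met 5 broad regions in any pool (0.308%), against 1.31% of all H3K4me3 regions and 0.207% of the narrower counterparts. Of these, 4 were called in fasted pool 5 and 1 in fed pool 4, and the fasted minus fed difference was 0.093 percentage points (exact permutation p = 1.0); without fasted pool 5 it was -0.031. The one with the most H3K9me3, chr1:66902109-66912357, had 45.3% of its bases in H3K9me3 peaks of fasted pool 5, and H3K9bhb covered 47.7% and 48.8% in the fasted pools.

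The broad regions were set against the narrower counterparts within each pool, where both are read from the same list. Over the whole region, H4K12bhb was called more often in the broad ones by 1.66 and 9.14 points in fasted pools 2 and 5 and by 6.89 and 19.6 points in fed pools 1 and 4. H3K27ac, H3K4me1 and H3K79me2 were also called more often in 4 of 4 pools, by means of 9.88, 13.8 and 21.3 points. The exact sign-flip permutation p was 0.125 for each of the 4 marks, the smallest possible, with a Benjamini-Hochberg value of 0.156. For H3K27ac the difference was 0.31 and 0.165 points in fasted pools 2 and 5, where nearly all regions of both sets were called. In fed pools 1 and 4 it was 13.1 and 26.0 points. In fed pool 1, H3K4me1 and H3K79me2 differed by 0.533 and 1.23 points. A broad region has more bases for a peak to meet, so the central 1000 bp were compared as the main test. There H4K12bhb was higher in the broad regions by 0.736 and 7.80 points in the fasted pools and by 6.52 and 15.2 points in the fed pools, a mean of 7.57 ± 5.96 (SD, n = 4 pools; exact sign-flip permutation p = 0.125, Benjamini-Hochberg value 0.312 over 5 marks). H3K79me2 was higher by 13.5 and 24.5 points in the fasted pools and differed by -0.022 and 23.4 points in the fed pools, a mean of 15.3 ± 11.4 (exact p = 0.25). H3K27ac differed by -0.346 and 0.042 points in the fasted pools and by 7.975 and 9.42 points in the fed pools. Its mean difference was 4.27 ± 5.15 points (exact p = 0.375), and that of H3K4me1 was -1.53 ± 2.55 points (exact p = 0.5). The centre thus showed more H4K12bhb in 4 of 4 pools, more H3K79me2 in 3 of 4, and no settled direction for H3K4me1, whose sign changed with the choice of peaks and was 13.8 points over the whole region.

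For H3K9bhb the same comparison of centres is a description. The central 1000 bp carried an H3K9bhb peak in 95.9% and 96.8% of the broad regions in fasted pools 2 and 5, and in 66.0% and 65.0% in fed pools 1 and 4. For the narrower counterparts the values were 95.5% and 97.9% in the fasted pools and 42.7% and 40.2% in the fed pools. The rule required H3K9bhb of both classes in the fasted pools, where their centres were alike, so nothing is read from that likeness. In the fed pools the centres of the broad regions were called more often by 23.3 and 24.9 points.

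The other wide regions give a view from outside the rule. The 98 regions of at least 5000 bp that lacked H3K9bhb in 1 or both fasted pools had H4K12bhb in 67.3% and 61.2% in fasted pools 2 and 5 and in 60.2% and 40.8% in fed pools 1 and 4. H3K9me3 was called in 6.12% and 13.3% of them in the fasted pools and in 2.04% and 1.02% in the fed pools. The 88 wide regions with H3K27me3 had H3K9bhb in 54.5% and 64.8% in the fasted pools and in 33.0% and 37.5% in the fed pools, and H3K79me2 in 42.0% in fasted pool 5 and 43.2% in fed pool 4.

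The broad regions were spread over all autosomes, where they made up 11% to 16.8% of the H3K4me3 regions of each chromosome. Chromosome 11 held the most, 172. On chromosome X they were 3 of 189 (1.59%). The X regions were less often wide, with 9 of at least 5000 bp, and H3K9bhb was called in both fasted pools at 22 of 189 (11.6%), against 43.6% to 62.8% on the autosomes. H3K27ac of fasted pool 5 was called at 94.2% of the H3K4me3 regions of X, against 89.4% to 95.5% on the autosomes. Of the 3 on X, chrX:96330365-96338551 had the most H3K9bhb, with 68.8% and 75.6% in fasted pools 2 and 5, and no peak in either fed pool. Pools mixed both sexes, and the share of X per pool was not analysed here.

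Most broad regions stood alone. Of 1601 pairs of neighbours on a chromosome, 56 were within 10000 bp of each other and 190 within 50000 bp, and the median gap was 508600 bp. Some lay in long stretches of H3K27ac. Of the 724 merged H3K27ac regions of 15000 bp or more, 295 (40.7%) met a broad region, and 319 broad regions (19.7%) met one, as did 393 narrower counterparts (8.12%).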

How the data were processed

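Each deposited file lists peaks with chromosome, start, end, name and a score. The score was given by the authors' caller and equals -10 × log10(p), which starts at 50 (p = 1e-05). The file names state that MACS 1 was run without a model on every library, with the pool's own input as control. FastQC, Bowtie 1.1.2, SAMtools 1.9, deepTools 1.5.11 and the mm9 build come from the submitters' processing notes, and further settings were not given in the sources used here. The 4 input samples entered no comparison.

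Merging, overlaps and tests used Python 3.11.15 with pandas 2.3.3 and numpy 2.4.6, rank correlations scipy 1.17.1, and figures matplotlib 3.10.9. The functions passed 11 of 11 checks, against bedtools 2.31.1 and on simulated data. A mark was called in a region when 1 bp of a peak overlapped it. Replicates are pools, grouped by the labels. Fasted and fed shares were tested by exact permutation of the 4 pools (two-sided), and broad against narrower regions by exact sign-flip permutation of 4 within-pool differences, both adjusted over 5 marks. Alternatives were a minimum score of 100, equal numbers of top peaks per list, 500 bp covered, gaps of 1000 bp closed, other width limits, each library left out and each run alone.

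The regions and marks were chosen with earlier results of these data known. Regions named are the 10 widest, those next to 5000 bp, the extremes of H3K9bhb change, those with H3K9me3, fed H3K27me3 or H3K4me3 in all 4 pools, and others named after their values were seen. The extremes of H3K9bhb change were taken among the broad regions with H3K9bhb in both fed pools.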

Additional observations from a re-analysis of the deposited data

Results flagged for a closer look

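H3K79me2 on the broad regions differed in the opposite direction in the 2 runs by mean coverage and by the share of centres called, but not by the share of regions called. Its mean coverage, fasted minus fed, was 16.0 percentage points in run 10 (fasted pool 2 and fed pool 1) and -1.20 in run 11 (fasted pool 5 and fed pool 4). The share of central 1000 bp with a peak differed by 26.5 points in run 10 and by -0.555 in run 11. The share of whole regions with a peak differed by 54.7 points in run 10 and by 0.494 in run 11. The difference between the runs was not tested, with 1 pool of each condition in a run. The H3K79me2 list held 14129 peaks in fasted pool 2 and 571 in fed pool 1, against 31246 in fasted pool 5 and 33841 in fed pool 4.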

How the results depend on the processing

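Of 180 values of 17 results under alternative settings, 160 were labelled the same, 9 moved and 11 reversed. The same meant a kept direction and side of the threshold for p, or for the number of regions a count within 1.5 times. No exact p could fall below 0.33 with 2 pools against 2, or below 0.125 with 4 within-pool differences. The side of the threshold was therefore fixed by the design, and keeping it says nothing about stability. Those that moved include H3K9bhb shares that kept their direction but changed in size. The size of many values labelled the same changed as well. The number of broad regions was 287 at a minimum width of 8000 bp and 2924 at 4000 bp. Without fed pool 1, the fasted minus fed difference was -9.78 points for H3K4me1 (range over libraries left out -9.78 to 80.2) and -17.9 for H3K79me2 (-17.9 to 73.1). For H3K9me3 it was -0.031 without fasted pool 5 (range -0.031 to 0.216), -0.039 where H3K9bhb covered most of the region, and 0 within run 10. The central difference between broad and narrower regions in H3K4me1 was 1.42 at a score of 100 or more, 0.652 with equal numbers of peaks, 13.8 over the whole region and 2.09 with gaps closed. That in H3K9me3 was 0.0048 over the whole region, 0.031 with gaps closed and 0.030 at 8000 bp. The causes were not tested. The equal numbers rest on 309 peaks for H3K4me1 and 59 for H3K9me3.

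The fasted minus fed share with H3K9bhb, 19.5 points, was 40.5 at a score of 100 or more, 14.7 with 13923 peaks in each list, and 6.45 at 8000 bp or more, and its direction is fixed by the rule, which sets the fasted share at 100%. No paired analysis by replicate number was possible, because fed pools 1 and 4 and fasted pools 2 and 5 share none. Pairing by the runs of the file names, with 1 pool of each condition in a run, was not tested. The differences within each run are values with no test. Lists carry no reads, so depth cannot be equalised, and 2 pools against 2 cannot give an exact p below 0.33.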

Other observations

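Single lists lacked whole broad domains that the other 3 lists of the mark covered almost fully. Among regions with at least 80% of bases covered in the other 3 pools, fed pool 4 had no peak at 2 of 170 for H3K9bhb, 7 of 536 for H4K12bhb and 18 of 414 for H3K27ac. Fed pool 1 had none at 1 of 118, 4 of 296 and 2 of 49, and fasted pool 2 had none at 0 of 58, 2 of 285 and 2 of 45, for the same marks in turn. Fasted pool 5 had 0 such cases for the 3 marks. For H3K9bhb the 0 in both fasted pools is fixed by the rule. These were looked for after the values were seen.

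The clearest case is chr14:69887214-69897688, a region of 10475 bp. H3K9bhb covered 99.8% and 100.0% of it in fasted pools 2 and 5 and 99.8% in fed pool 4. In fed pool 1 no peak overlapped it, while the nearest H3K9bhb peaks of that list ended 109 bp below it and began 451 bp above it. At chr11:98601003-98616221 the H3K9bhb list of fed pool 4 had its nearest peaks 29660 bp below and 7474 bp above the region. At chr9:46035967-46041680, H4K12bhb covered 100.0% in fasted pools 2 and 5 and in fed pool 4, and no peak was called in fed pool 1.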
